A study of Mus musculus with 2 samples.

Results

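Mdm2, Mdm4, Btg2, Ccng1, Gtse1, Sesn1, Zmat3, Phlda3, Perp and Trp53 itself form a set of 10 mouse genes that covers the transcription factor p53, its main inhibitors and some of its best-known target genes. A probe set, the group of short probes that reports on 1 transcript on an Affymetrix array, was included when the platform annotation gave it 1 of these symbols and no other. This selected 20 of 45037 probe sets, for 9 of the 10 genes, out of 18193 genes named in this way. Trp53 was not analysed here, so its own mRNA level has no value below. The selection rule itself uses symbols and no measured value, though the genes were proposed with earlier results of these data known. The samples were cells of E14, an established mouse embryonic stem cell line that all groups share. The treated group carried a lentiviral short hairpin RNA (shRNA) directed at Mll2, a name used for histone H3 lysine 4 methyltransferases, and the other group a control shRNA. Both had 24 h of infection and 5 days of puromycin selection, and neither was labelled as a single clone. Each group was read on 1 array, so there is no replicate spread, no test and no p-value, and every ratio describes this pair of arrays.

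The p53 protein is made continuously and is held at a low level by Mdm2, a ubiquitin ligase that marks it for degradation, and by Mdm4, a relative that binds p53 and blocks its activation domain. After DNA damage or other stress p53 is released, binds DNA as a tetramer and activates genes for cell cycle arrest, repair, metabolism and cell death. Mdm2 is itself a target, which closes a negative feedback loop. In embryonic stem cells p53 is best known for restraining self-renewal after DNA damage, with repression of Nanog as the classical example.

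Levels are log2 MAS5 signals as deposited, and a ratio is the log2 value of the Mll2 shRNA array minus that of the control array. A value counted as measured above a floor of 6.02 on the log2 scale, and a gene was represented by its measured probe set with the highest mean. On this basis 11805 genes were measured. As a check of the targeted transcript, Kmt2d, which has also been called Mll2, gave signals of 335 with the Mll2 shRNA and 736 with the control shRNA (ratio -1.14), and Kmt2b, which has carried the same name, had 852 and 901 (ratio -0.08). Whether the shRNA was aimed at Kmt2d or Kmt2b is not given in the labels. All 10 embryonic stem cell markers were measured on both arrays, with ratios from -0.65 to 0.59, 5 above 0 and 5 below. Nanog, 1 of those above 0, read 6864 and 4950 (ratio 0.47), with the Mll2 shRNA value first. Pou5f1 (-0.44), Utf1 (-0.41), Tdgf1 (-0.37), Dppa5a (-0.22) and Fgf4 (-0.65) went the other way. An effect of p53 on these markers was not tested. Of 14 fibroblast markers, checked for feeder or stromal cells, 10 were measured, 5 with ratios above 0 and 5 below. Their summed signal was 17572 with the Mll2 shRNA and 13783 with the control shRNA, most of it from Vim (16382 and 12423), and without Vim the other 9 summed to 1191 and 1360, the other direction. Thy1, Postn and Twist2 were not above the floor, and their part in the results was not tested. The 3' minus 5' difference of the beta-actin control probe sets, a sign of RNA quality, was 0.77 with the Mll2 shRNA and 0.96 with the control shRNA. For the Gapdh control probe sets it was 0.06 and 0.05 in the same order. The part of RNA quality was not tested either. From here on, the signal with the Mll2 shRNA is given first and that with the control shRNA second. In bulk RNA, fewer cells of a type and less RNA per cell cannot be told apart.

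The start regions of 4 members are shown because p53 acts by binding DNA near its targets and because these genes differ in how far they moved between the arrays. Each is 300 bases of the RefSeq table of GRCm38.p6, from 250 bases before a transcript start to 50 after it, and 8 of the 10 genes had such a window, 11 in all. They were searched for the p53 half-site consensus, a motif of 10 letters that reads the same on both strands, and capitals mark an exact match. Mdm2 lies on the minus strand at chr10:117710709-117711008, Btg2 on the minus strand at chr1:134079106-134079405, Ccng1 on the minus strand at chr11:40755237-40755536 and the second Gtse1 start on the plus strand at chr15:85859696-85859995.
Mdm2: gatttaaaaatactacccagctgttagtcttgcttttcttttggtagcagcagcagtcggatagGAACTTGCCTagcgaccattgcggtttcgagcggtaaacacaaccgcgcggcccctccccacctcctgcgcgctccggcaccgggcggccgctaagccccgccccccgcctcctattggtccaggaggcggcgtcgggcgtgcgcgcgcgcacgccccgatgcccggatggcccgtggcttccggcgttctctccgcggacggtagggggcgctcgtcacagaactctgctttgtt
Btg2: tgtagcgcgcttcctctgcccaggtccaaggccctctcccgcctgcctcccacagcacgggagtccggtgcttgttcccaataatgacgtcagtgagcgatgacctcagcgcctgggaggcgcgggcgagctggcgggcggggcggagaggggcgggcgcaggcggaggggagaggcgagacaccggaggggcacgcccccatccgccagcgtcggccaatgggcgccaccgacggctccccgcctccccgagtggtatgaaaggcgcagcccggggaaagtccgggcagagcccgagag
Ccng1: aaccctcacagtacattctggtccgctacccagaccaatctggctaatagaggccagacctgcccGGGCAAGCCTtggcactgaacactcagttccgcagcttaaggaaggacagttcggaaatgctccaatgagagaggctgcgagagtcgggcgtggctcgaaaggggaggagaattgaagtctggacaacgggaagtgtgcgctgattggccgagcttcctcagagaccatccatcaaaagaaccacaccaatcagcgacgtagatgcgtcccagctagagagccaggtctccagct
Gtse1: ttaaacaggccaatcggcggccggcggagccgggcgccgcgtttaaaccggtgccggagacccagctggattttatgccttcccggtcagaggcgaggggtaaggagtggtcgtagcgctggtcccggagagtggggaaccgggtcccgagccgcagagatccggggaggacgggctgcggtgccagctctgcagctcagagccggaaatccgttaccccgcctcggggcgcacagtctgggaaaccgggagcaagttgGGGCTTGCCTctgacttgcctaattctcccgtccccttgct

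An exact half-site was found in 5 of the 11 windows, against 8.36% of all 32851 windows in the table. The match in Mdm2 began 186 bases before the start, that in Ccng1 185 bases before it and that in Gtse1 at base 10 after it. The second Sesn1 window and the Trp53 window held the other matches, and no match was found in Btg2, Phlda3 or either Mdm4 window. A p53 site is made of a pair of half-sites, and in Ccng1 and Gtse1 the 10 bases just before the exact match differed from the consensus by 1 base. A half-site with such a neighbour on either side and no spacer was present in 29 windows of the table, 0.0883%. Mdm2 also has a second promoter in its first intron, known as its p53-responsive one, which lies outside the window shown. A match is a description of letters and not a measured binding site, and no p53 binding was measured.

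None of the 9 measured genes reached 2-fold in either direction. Among all measured genes 2.45% did, 1.47% higher and 0.983% lower in the Mll2 shRNA array. The ratios of the 9 ran from -0.31 for Phlda3 to 0.91 for Btg2, with a median of 0.21 beside 0.03 over all measured genes. Of the 9, 6 were above 0, a share of 66.7% beside 53.5% of all measured genes. At the lower limit of 1.5-fold, Btg2 and Sesn1 were higher and no member was lower, where 7.4% of all measured genes were higher and 4.68% lower. With 9 members, these shares rest on 1 or 2 genes more or less than the background would give, and nothing is read from them. Of the 20 probe sets 18 were measured, 16 on both arrays and 2 on 1 array only, and 13 of the 18 had a ratio above 0 and 5 below, beside 53.2% above 0 among all such probe sets. With values under the floor raised to it, no measured member probe set reached 2-fold, where 2.19% of all measured probe sets with 1 gene symbol did.

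**Figure D1:**
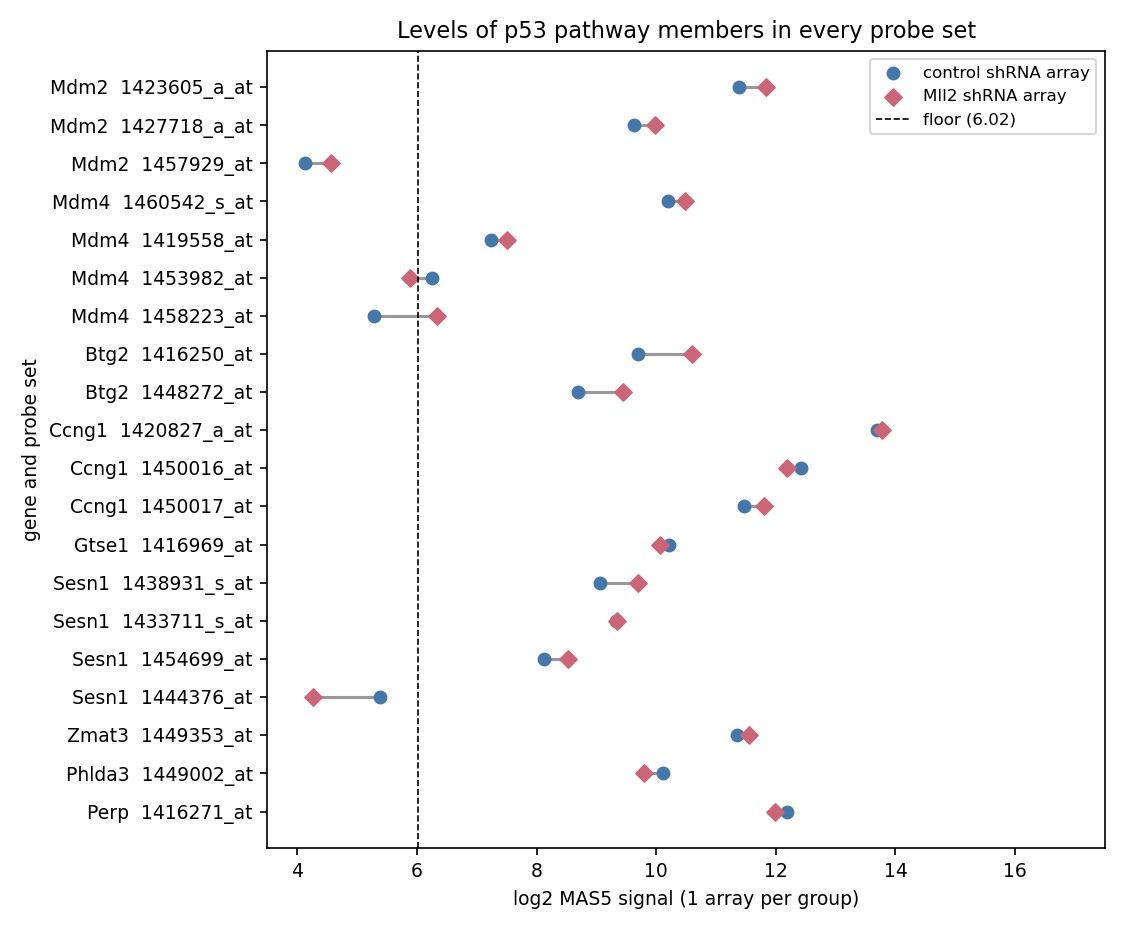
The log2 MAS5 signal (horizontal axis) of each of the 20 member probe sets (rows) is plotted for the control shRNA array (circles) and the Mll2 shRNA array (diamonds), with the floor of 6.02 as a dashed line. Both Btg2 probe sets lie clearly to the right on the Mll2 shRNA array, while the probe sets of Ccng1 go in both directions and Gtse1, Phlda3 and Perp lie slightly to the left.

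The inhibitors of p53 were both somewhat higher in the Mll2 shRNA array. Mdm2 gave signals of 3657 and 2689 in probe set 1423605_a_at, a ratio of 0.44 or 1.36-fold. A second Mdm2 probe set, 1427718_a_at, read 1007 and 793, a ratio of 0.34. The mean of the 2 ratios was 0.39 ± 0.07 (SD over 2 probe sets of the same arrays). For comparison, the 500 genes nearest to Mdm2 in mean level had a spread of ratios of 0.22, computed as a scaled median absolute deviation, and 26 of them had a higher ratio. That spread mixes real differences with noise and says nothing of variation between cultures. The remaining Mdm2 probe set, 1457929_at, lay under the floor (log2 values 4.56 and 4.13) and was not used for a ratio.

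Mdm4 was higher by less. Its probe set 1460542_s_at had signals of 1429 and 1174 (ratio 0.28), and 1419558_at had 182 and 150 (ratio 0.28). The first ratio was close to the spread of 0.26 at its level, and 109 of the 500 nearest genes had a higher one. The remaining Mdm4 probe sets were above the floor on 1 array only and went in opposite directions. Probe set 1458223_at read 80.6 and 39.0, higher by at least 1.25-fold against the floor, and 1453982_at read 58.9 and 76.2, lower by at least 1.18-fold. The mean over all 4 was 0.16.

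Btg2 differed most of the members. It encodes an antiproliferative protein of the BTG/TOB family that binds the CCR4-NOT deadenylase and is induced by p53 and by growth factors. Probe set 1416250_at gave 1555 and 825, a ratio of 0.91 or 1.88-fold. The second probe set, 1448272_at, read 700 and 415, a ratio of 0.75 or 1.69-fold, so that both pointed the same way, with a mean of 0.83 ± 0.11 (SD over 2 probe sets). The spread at the level of Btg2 was 0.27, and 3 of the 500 nearest genes had a higher ratio. Against the 2-fold limit Btg2 lay just short as deposited and just past it, at 1.03, when both arrays were scaled on the bacterial spike-in controls.

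The relatives of Btg2 were looked up as well, a choice made after some of their values were seen. Btg1 had signals of 5282 and 4084 in 1437455_a_at, and its 3 probe sets gave ratios from 0.37 to 0.50. Tob1 read 3018 and 2180 (ratio 0.47). Tob2 read 1255 and 903 (ratio 0.47), and its 4 measured probe sets gave 0.25 to 0.47. The measured family members were thus all higher in the Mll2 shRNA array, each by less than Btg2. Btg4 was not above the floor and Btg3 was not analysed here.

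Ccng1 and Gtse1, which act back on p53, showed no difference beyond the disagreement between probe sets or the spread at their level. Ccng1 encodes cyclin G1, which recruits protein phosphatase 2A to Mdm2. Its probe set 1420827_a_at had signals of 13982 and 13292 (ratio 0.07). Probe set 1450016_at read 4675 and 5473 (ratio -0.23) and 1450017_at read 3585 and 2831 (ratio 0.34). The 3 probe sets therefore differed in direction, with a mean of 0.06 ± 0.28 (SD over 3), and the platform annotation gives all of them the same source sequence. Ccng2, the other cyclin G gene, was looked up along with the relatives of Btg2. Its ratio was 0.08 in 1416488_at and 0.29 in 1448364_at, a dimmer probe set.

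Gtse1 encodes a microtubule-associated protein of G2 and S phase that carries p53 out of the nucleus, and was first described in mouse as a p53-inducible gene. It had a single probe set, 1416969_at, with signals of 1075 and 1190 (ratio -0.15), which is within the spread of 0.27. Ccng1 and Gtse1 are the members whose windows above hold the paired half-site. Their ratios were 0.07 and -0.15. No p53 binding was measured, and whether these letters bear on the ratios was not tested.

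Sesn1 encodes sestrin 1, a stress-induced inhibitor of mTORC1 signalling. Probe set 1438931_s_at had signals of 832 and 533, a ratio of 0.64 or 1.56-fold, and 23 of the 500 nearest genes had a higher ratio. The other measured probe sets gave less. Probe set 1454699_at read 368 and 279 (ratio 0.40), and 1433711_s_at read 647 and 641 (ratio 0.01). The mean of the 3 was 0.35 ± 0.32 (SD), so the size of the Sesn1 difference depends on the probe set read. Probe set 1444376_at, with log2 values of 4.26 and 5.38, stayed under the floor. The other sestrin genes, looked up after their values were seen, did not move together. Sesn3 had ratios of 0.42 and 0.63, whereas Sesn2, which also responds to amino acid stress, had -0.69 in 1451599_at and 0.16 in 1425139_at.

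Zmat3, Phlda3 and Perp had 1 probe set each. Zmat3, an RNA-binding zinc finger protein that regulates splicing and mRNA stability downstream of p53, had signals of 3010 and 2611 (ratio 0.21, spread 0.24). Phlda3, which competes with the kinase AKT for membrane lipids and so dampens it, had 894 and 1106 (ratio -0.31, spread 0.28). Perp, a tetraspan membrane protein of desmosomes that also takes part in p53-dependent apoptosis, had 4040 and 4640 (ratio -0.20, spread 0.21). Phlda3 was the lowest of the members, with 57 of its 500 nearest genes lower still. Phlda2, an imprinted relative of Phlda3 looked up after the values were seen, had 1761 and 3920 (ratio -1.15), and Phlda1 had a ratio of -0.08.

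**Figure D2:**
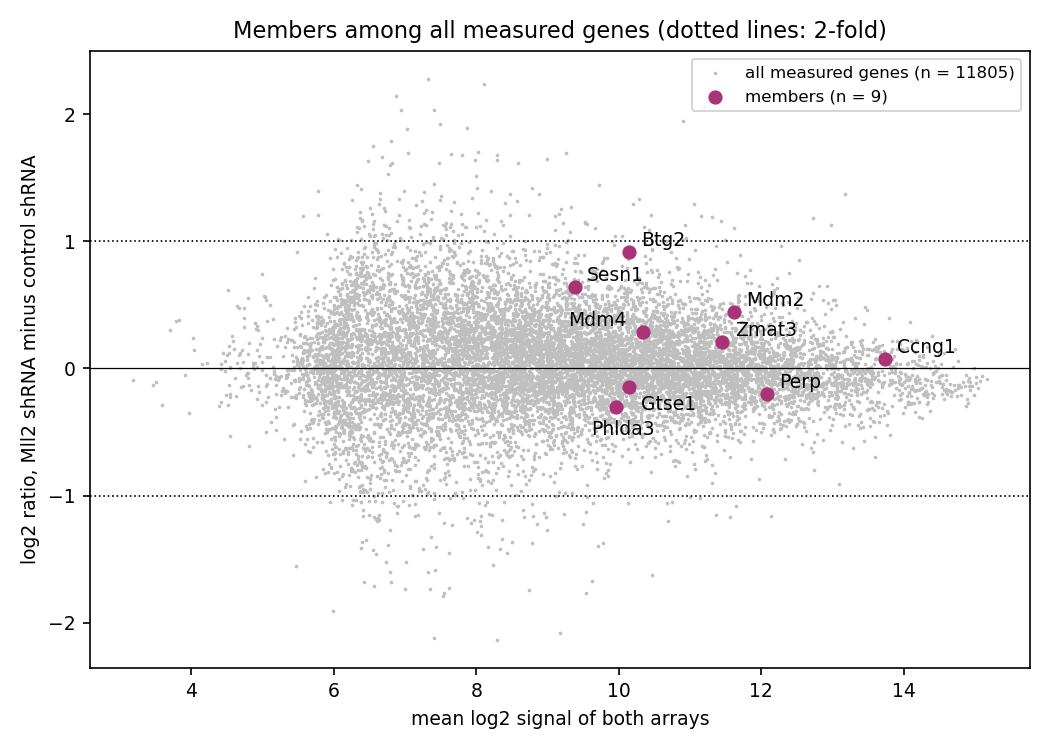
Each grey point is 1 of 11805 measured genes, with the mean log2 signal of both arrays on the horizontal axis and the log2 ratio on the vertical axis. The 9 members (large points) all lie between the dotted 2-fold lines, with Btg2 (0.91) nearest to the upper one.

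Other genes of the pathway were examined through 3 lists, which share no gene with the members or with each other. Among 55 further p53 targets 51 were measured, with 28 above 0 and 23 below. Their median was 0.03, equal to that of all measured genes after rounding. Btg1, Tob1 and Sesn2, looked up above as relatives of members, belong to these targets. None was at least 2-fold higher and 2 were at least 2-fold lower. At 2-fold lower this is 3.92%, beside 0.983% of all measured genes. At 1.5-fold 1 was higher (1.96%, beside 7.4% of all measured genes) and 8 were lower (15.7%, beside 4.68%).

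Cdkn1a encodes the CDK inhibitor p21 and is the standard readout of p53 activity. It had signals of 2176 and 1539 in 1424638_at (ratio 0.50) and 726 and 522 in 1421679_a_at (ratio 0.48), 1.41-fold and 1.39-fold higher in the Mll2 shRNA array. The spread at the level of the first was 0.27. Targets with a role in cell death varied. Bbc3, the BH3-only protein Puma, had 516 and 506 (ratio 0.03), Pmaip1, the BH3-only protein Noxa, had 1372 and 1506 (ratio -0.13), and Bax was not analysed here. Eda2r, a death receptor-like protein of the TNF receptor family, was at 0.54, Trp53inp1 at 0.35 and Apaf1, the scaffold of the apoptosome, at 0.32. These 3 were picked after their values were seen, and other death targets of the list were lower or near 0. Aen was at -0.32 and Pidd1 at 0.03. Fas (0.09) and Tnfrsf10b (-0.31) were above the floor on 1 array only.

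The largest differences in the target list were downward. Igfbp3, a binding protein of insulin-like growth factors, had 1580 and 3198 (ratio -1.02) in 1423062_at and 659 and 1119 (ratio -0.76) in 1458268_s_at. Cd82, a tetraspanin, had 67.0 and 175 (ratio -1.39), but the value of 67.0 lay just above the floor signal of 64.7, and its second probe set was near the floor with a ratio of 0.0058. Tgfa, a ligand of the EGF receptor, had 114 and 225 (ratio -0.98) in its 1 measured probe set. Sfn, the 14-3-3 sigma protein of the G2 checkpoint and of epithelia, had 399 and 741 (ratio -0.89). These 4 genes, like Btg2 and Sesn2 above, also have other known regulators besides p53, and the part of any regulator was not tested.

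Of 36 regulators of p53, 33 were measured, 12 above 0 and 21 below, with a median of -0.06. The share above 0 was 36.4%, beside 53.5% of all measured genes, and none was at 2-fold, beside 2.45%. This list was brighter than all measured genes, with a median log2 level of 11.0 beside 9.03. Ratios shift with level, and the 500 nearest genes had a median ratio of -0.06 at the level of Usp7 and 0.08 at that of Cdkn2a. Nothing is therefore read from these shares. With spike-in scaling the median was 0.047. Cdkn2a, whose Arf product inhibits Mdm2, had signals of 470 and 334 (ratio 0.49). Its probe set carries the suffix _a_at and cannot tell Arf from the p16 product of the same locus. Ppm1d, a phosphatase that switches p53 signalling off, was at 0.02, and at -0.22 in its second probe set. The deubiquitinase Usp7 was at 0.20. The damage kinases Atm and Chek1 were at -0.15 and -0.17. A dim Chek1 probe set that passed the floor with the Mll2 shRNA alone had a ratio of at least 1.03. The 7 Usp7 probe sets ran from -0.21 to 0.73. The largest ratios were those of Aurka, a mitotic kinase (-0.73), Hipk2, a kinase that phosphorylates p53 (0.60), Pml, the scaffold of nuclear bodies (0.57), and Prmt5, an arginine methyltransferase (-0.54). Second probe sets left 2 of these uncertain, since Aurka gave 0.62 in the other direction and the 6 measured Hipk2 probe sets ran from -0.08 to 1.11. All 3 Pml probe sets were above 0, from 0.22 to 0.76. The p53 paralogs belong to this list and were singled out after the values were seen. Trp63 was not above the floor in any of 4 probe sets, and Trp73 read 54.4 and 66.0, close to the floor signal of 64.7.

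The last list held genes that p53 represses through p21 and the DREAM complex, mostly genes of mitosis. All of the 28 measured of 30 were within 1.5-fold, where 7.4% of all measured genes were higher and 4.68% lower. Of the 28, 16 were above 0 and 12 below (57.1% above 0, beside 53.5%), with a median of 0.02. The list was brighter than all measured genes, with a median log2 level of 11.6 beside 9.03. Ratios spread less among bright genes (0.15 at the level of Cdc20, 0.37 at that of E2f1). Nothing is therefore read from the absence of larger ratios. Ccnb2 (cyclin B2) had the highest ratio at 0.51, with signals of 5998 and 4200. E2f1 was at 0.43, with 0.42 in its second measured probe set. Mybl2, the MYB protein that opposes DREAM, was at -0.37, but at -0.07 in its second probe set, 1454946_at. Cdc20, an activator of the anaphase-promoting complex, was at -0.34, with -0.24 in 1416664_at and -0.07 in 1439394_x_at. Members of this list had no common direction.

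**Figure D3:**
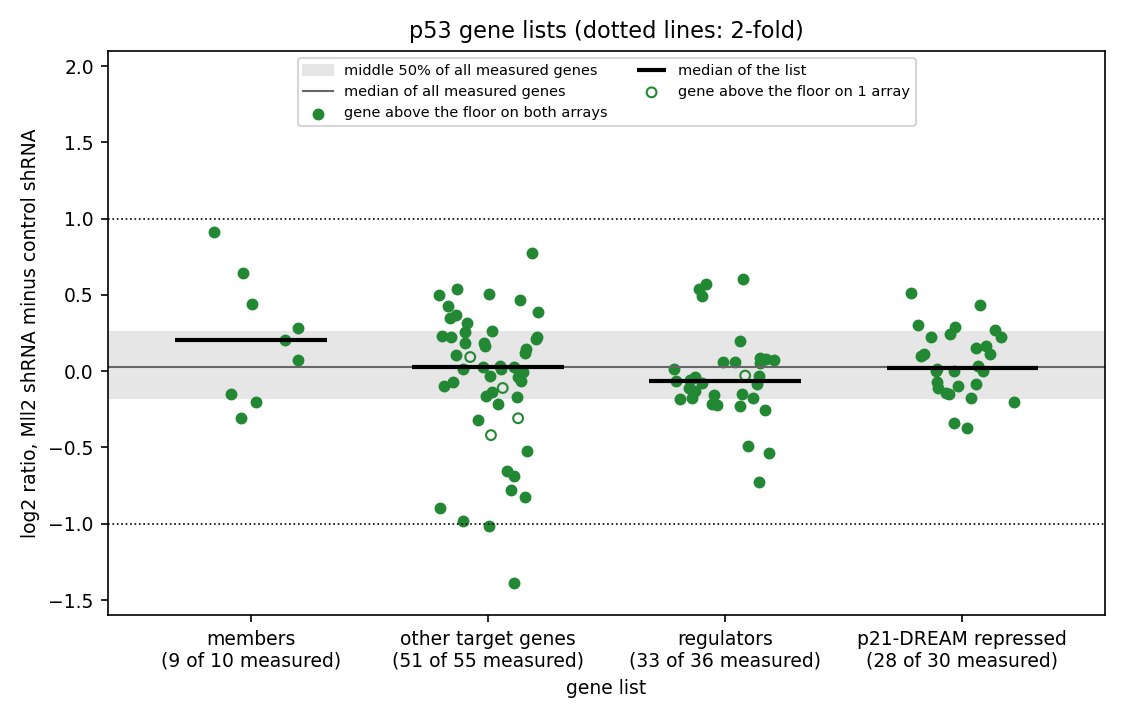
Log2 ratios of single genes (points) are shown for the members and the 3 further lists, with the median of each list as a bar and the middle 50% of all measured genes as a grey band. The members' median is 0.21, those of the other lists lie between -0.06 and 0.03, and the points beyond a dotted 2-fold line are 2 target genes on the lower side.

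Ratios were recomputed under 4 scalings, 4 floor settings and 2 rules for combining probe sets. Of the 9 members, 8 kept the sign of their ratio in every one of these settings that gave a value. Ccng1 changed from 0.07 to -0.23 when every probe set with a letter in its suffix, as in _s_at, was left out. Several settings could not change a member ratio. With the 30th-percentile floor, the 70th-percentile floor and no floor, each member's brightest probe set lay above the floor on both arrays, and its ratio stayed as deposited. Gtse1, Zmat3, Phlda3 and Perp have 1 probe set each, without such a letter, so the probe-set rules could not change theirs. Btg2 ranged from 0.83 to 1.03, Sesn1 from 0.35 to 0.76 and Mdm2 from 0.39 to 0.56. Spike-in scaling raised the median of all measured genes by 0.11 and the members with it, so that Gtse1 came to -0.03 and Perp to -0.08.

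**Figure D4:**
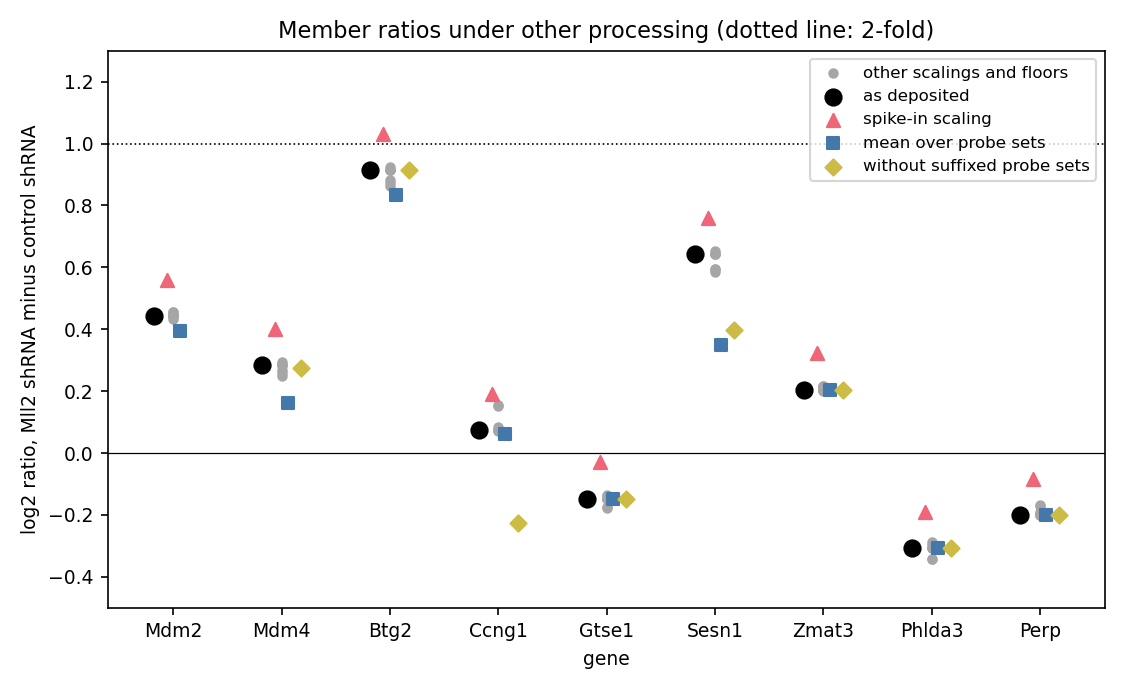
The log2 ratio of each member (vertical axis) is plotted as deposited (black) and under other processing (colours and grey). Btg2 stays between 0.83 and 1.03 and crosses the dotted 2-fold line with spike-in scaling alone, and the Ccng1 ratio lies below 0 only without the suffixed probe sets.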

How the data were processed

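Messenger RNA was read on 2 Affymetrix 3' expression arrays. The authors deposited log2 values for 45101 probe sets, made with MAS5 per the submitters' processing notes. Its version is not given in the sources used here. MAS5 brings arrays to 1 trimmed mean, and both had a 2% trimmed mean of 500.0 on the linear scale. Its mismatch subtraction leaves dim signals noisy. The number of arrays limits the precision.

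After removal of 64 control probe sets, 34945 of 45037 had 1 gene symbol, 932 several and 9160 were not listed in the annotation. For 34741 the symbol was taken from RefSeq GRCm38.p6 through the Entrez number, whether or not it differed from the annotated one. Values below the 50th percentile of both arrays (6.02, a signal of 64.7) were raised to it. A gene above it on 1 array only has a lower bound. Genes were counted at 2-fold and 1.5-fold. The steps were tested on simulated data. All added changes were 3-fold or 4-fold, so that test does not bear on smaller differences such as those of the members.

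Members and lists were chosen with earlier results of these data known. Named from the lists were genes at 2-fold, the 4 with the largest ratios and 9 fixed genes. Others are marked, except the cell type markers, which were named outside this rule. Alternatives were median, quantile, loess (span 0.3) and spike-in scaling, other floors, a pseudocount, probe-set rules and other fold limits. Python 3.11.15, numpy 2.4.6, pandas 2.3.3, scipy 1.17.1, statsmodels 0.14.6 and matplotlib 3.10.9 were used.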

Additional observations from a re-analysis of the deposited data

How the results depend on the processing

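The count of members at 2-fold or more higher, 0 as deposited, was 1 with spike-in scaling (Btg2) and 2 at 1.5-fold. The count of member probe sets at 2-fold, also 0, was 1 with spike-in scaling, 1 with a 30th-percentile floor, 1 with no floor and 3 at 1.5-fold. With spike-in scaling this was a Btg2 probe set. With the lower floor or none it was the dim Mdm4 probe set 1458223_at, whose deposited ratio was 1.05. With spike-in scaling the median ratio of the other target genes was 0.14, that of the regulators 0.047 and that of the DREAM-repressed genes 0.14, and the first 2 medians were 0.03 and -0.06 as deposited. The median of the other target genes was -0.02 after loess and -0.01 after quantile normalization, and that of the DREAM-repressed genes was -0.02 without suffixed probe sets. Over all measured genes, 173 were 2-fold higher and 116 lower as deposited. These counts were 494 and 482 with a 30th-percentile floor, 50 and 38 with a 70th-percentile one, 380 and 338 with no floor, 87 and 70 with a pseudocount, 873 and 553 at 1.5-fold, 27 and 18 at 3-fold, and 258 and 82 with spike-in scaling. Of 89 recomputed member ratios 88 moved by less than the spread at their level, and the exception was Ccng1. Many of the 89 could not move, since the 30th-percentile floor, the 70th-percentile floor and no floor left every member ratio as deposited. Mdm2 has no measured probe set left without the suffixed ones. No paired analysis was possible because each group has 1 array. Dim probe sets, such as those of Trp63, allowed no ratio, and no difference between cultures can be judged from 1 array each.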
